A study of Mus musculus with 12 samples.

Results

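Small structured and nuclear noncoding RNAs were followed on the 12 arrays of this series, 6 of the 7 listed being measured: the Y RNAs Rny1 and Rny3, the vault RNA Vaultrc5, the RNase P RNA Rpph1, the RNase MRP RNA Rmrp and the nuclear long noncoding RNA Malat1. The seventh, Neat1, matched no probe set by symbol, Entrez identifier or accession in the platform annotation and is not analysed here. Each of the 6 had 1 probe set assigned to it alone, among 19938 genes measured in all. They were selected on their large differences between the 2 genotype labels, so those differences are given as a description, with no test. The series profiled laser-microdissected intestinal epithelium on whole-transcript expression arrays, with RNA labelled by a kit for very small amounts. All animals were male C57BL6/J mice of 25 weeks that carried APCmin/+, a truncating allele of Apc that gives intestinal adenomas. FSPCre-PPARB -/- mice, called KO, were set against PPARB flox/flox littermates whose labels name no Cre, called floxed, and both tumor epithelium and tumor-adjacent epithelium were taken. PPARB is the nuclear receptor PPAR beta/delta (gene Ppard), and FSP is the promoter of fibroblast-specific protein, so the Cre is directed to a cell type other than the one dissected.

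The groups held 3 floxed tumor, 3 KO tumor, 2 floxed adjacent and 2 KO adjacent arrays, all values on a log2 scale. A further 2 adjacent arrays carried opposed genotype labels. The first of these, called conflict array 1, is KO by title and source name and floxed by description and genotype field, and conflict array 2 is the reverse. They entered no group and are given beside the groups as single values. Nothing in the labels ties arrays to animals, so every p-value below measures only the spread between arrays and may be too small.

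Y RNAs are short RNA polymerase III transcripts bound by the Ro and La proteins, and vault RNAs are polymerase III transcripts carried by the cytoplasmic vault particle. RNase P RNA is the catalytic RNA of the enzyme that trims the 5′ end of precursor tRNAs and also cuts the 3′ end of Malat1, while the related RNase MRP RNA acts in ribosomal RNA processing. Malat1 is retained in nuclear speckles, where splicing factors gather, and Neat1 is the scaffold of paraspeckles.

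Of the 12 arrays, 4 stood apart from the rest before any comparison: arrays 1 and 2 of floxed tumor, and arrays 1 and 2 of floxed adjacent epithelium. Their median correlation with the other arrays lay between 0.507 and 0.611, against 0.818 to 0.852 on the other 8, and these 4 are called weak-signal arrays. The SD over probe sets was 1.04 to 1.09 on them and 1.49 to 1.57 elsewhere. The median of 1027 olfactory receptor genes, used as a scale of low signal, was 3.89 to 4.08 on them and 2.75 to 3.01 elsewhere. Only 1 floxed array with an agreeing label, floxed tumor array 3, was not weak, so weak signal and the floxed label cannot be told apart in adjacent epithelium. Ppard itself measured 4.95, 4.48 and 5.79 in floxed tumor and 6.06, 6.07 and 6.50 in KO tumor, a difference of 1.14 with a limma adjusted p of 0.0991, and the adjacent difference was 0.78 (adjusted p = 0.230); with the Cre directed to fibroblasts, epithelial Ppard is no check of the labels.

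Rny1 was the Y RNA with the widest separation of genotypes in tumors. Its level was 4.5, 4.56 and 5.97 on floxed tumor arrays 1 to 3 and 8.70, 8.84 and 9.08 on KO tumor arrays 1 to 3. The adjacent samples gave Rny1 values of 5.39 and 8.72 with the floxed label and 10.19 and 10.53 with the KO label. All KO arrays lay above all floxed arrays of the same tissue, and floxed adjacent array 2 lay far above the other one. The group means were 5.01 ± 0.83 (SD, n = 3) for floxed tumor, 8.87 ± 0.19 (SD, n = 3) for KO tumor, 7.05 ± 2.35 (SD, n = 2) for floxed adjacent and 10.36 ± 0.25 (SD, n = 2) for KO adjacent. The KO minus floxed difference was therefore 3.86 in tumor and 3.31 in adjacent epithelium, the latter 1.64 without floxed adjacent array 1 and 4.97 without array 2. In dissected tissue, fewer cells that hold an RNA and less of that RNA per cell cannot be told apart. On floxed tumor arrays 1 and 2 Rny1 was under the 95th percentile of the olfactory receptor genes, so its value there is not separable from low signal. Against floxed tumor array 3 alone the KO tumor mean of Rny1 was higher by 2.91, the largest such difference of the 6 RNAs.

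Rny3 lies beside Rny1 in the reference gene table and had smaller genotype differences. It measured 9.48, 6.30 and 9.94 on the floxed tumor arrays and 9.98, 10.61 and 10.27 on the KO tumor arrays. The adjacent values were 7.50 and 9.49 in floxed and 11.49 and 11.40 in KO tissue. The groups again did not overlap, but KO tumor array 1 exceeded floxed tumor array 3 by a small margin only. Rny3 means were 8.57 ± 1.98 (SD, n = 3) and 10.28 ± 0.31 (SD, n = 3) in floxed and KO tumors, a difference of 1.71, and the adjacent difference was 2.95 (1.95 without floxed adjacent array 1). Set against floxed tumor array 3, the tumor difference was 0.35, close to the SD of 0.31 among the KO tumor arrays, and without floxed tumor array 2 it was 0.58.

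Vaultrc5, a vault RNA, was measured at 8.66, 5.41 and 9.0 on the floxed tumor arrays and at 11.22, 11.41 and 11.76 on the KO tumor arrays. Floxed adjacent arrays gave 6.34 and 4.86, and KO adjacent arrays gave 10.47 and 10.60. No floxed array reached a KO array of its tissue, and floxed adjacent array 2 was under the olfactory receptor 95th percentile. The difference was 3.77 in tumor, from means of 7.69 ± 1.98 (SD, n = 3) and 11.46 ± 0.27 (SD, n = 3), and 4.93 in adjacent epithelium. Against floxed tumor array 3 it was 2.46, where the KO tumor SD was 0.27.

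Rpph1, the RNA subunit of RNase P, gave 10.98, 9.20 and 12.24 on the floxed tumor arrays and 13.70, 13.81 and 13.76 on the KO tumor arrays. Adjacent floxed values were 10.85 and 7.83, and adjacent KO values were 13.81 and 13.75. The KO arrays were almost level, with an SD of 0.05 in tumor and 0.04 in adjacent tissue, while the floxed SDs were 1.53 and 2.13. Its probe set held rank 1 of all genes on each of the 5 KO arrays, where the highest value of any probe set was 13.76 to 13.87, so the KO values sit at the top of the scale and saturation was not tested. The KO minus floxed differences of Rpph1 were 2.95 in tumor and 4.44 in adjacent epithelium (2.94 without floxed adjacent array 2), and 1.52 against floxed tumor array 3.

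Rmrp, the RNA of RNase MRP, was the exception. Its values were 8.42, 4.76 and 11.49 on the floxed tumor arrays and 10.09, 9.89 and 8.70 on the KO tumor arrays. Floxed adjacent arrays 1 and 2 gave 11.03 and 4.03, the widest gap within a group among the 6 RNAs, and KO adjacent arrays gave 9.48 and 9.23. The genotypes overlapped in both tissues, with floxed tumor array 3 and floxed adjacent array 1 above every KO array. Mean differences were 1.34 in tumor and 1.83 in adjacent epithelium, but the SD was 3.37 in floxed tumor (n = 3) and 4.95 in floxed adjacent tissue (n = 2). The sign turned without floxed tumor array 2, to -0.39, and without floxed adjacent array 2, to -1.67; on both of those arrays Rmrp was under the olfactory receptor 95th percentile. Against floxed tumor array 3 alone the difference of the KO tumor mean was -1.92, the one negative value of the 6 RNAs.

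Malat1 was measured at 7.24, 6.41 and 10.21 on the floxed tumor arrays and at 10.59, 10.51 and 11.23 on the KO tumor arrays. Its adjacent values were 5.52 and 6.91 in floxed tissue and 10.74 and 11.24 in KO tissue. The 4 weak-signal arrays lay between 5.52 and 7.24 and the other 8 between 9.65 and 11.24, so Malat1 parted the arrays by signal class with no overlap and by genotype with a small gap in tumor. The same held for Rny3, at most 9.49 on the weak-signal arrays and at least 9.92 on the others, and for Rpph1, at most 10.98 and at least 12.24. For Rny1, Vaultrc5 and Rmrp the signal classes overlapped. The share of all genes parted in this way was not computed. All 4 weak-signal arrays carry the floxed label on which the members were chosen, so nothing further is read from the split. The KO minus floxed differences of Malat1 were 2.82 in tumor and 4.78 in adjacent epithelium. Against floxed tumor array 3 the difference was 0.56, where the KO tumor SD was 0.40 (n = 3). A second probe set is assigned to both Malat1 and Ramp2 and cannot be attributed to either. It was between 10.81 and 12.09 on the 12 arrays, with KO minus floxed differences of 0.31 in tumor and -0.26 in adjacent epithelium, and so did not repeat the separation seen with the Malat1 probe set.

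The start of Malat1 is shown because Malat1 is the RNA polymerase II transcript among the 6 and its promoter is the one entry of these RNAs in the RefSeq promoter table used (GRCm38.p6, chr19:5802623-5802922, minus strand). Lower case marks the bases before the start and capitals the first 50 transcribed bases.
Malat1: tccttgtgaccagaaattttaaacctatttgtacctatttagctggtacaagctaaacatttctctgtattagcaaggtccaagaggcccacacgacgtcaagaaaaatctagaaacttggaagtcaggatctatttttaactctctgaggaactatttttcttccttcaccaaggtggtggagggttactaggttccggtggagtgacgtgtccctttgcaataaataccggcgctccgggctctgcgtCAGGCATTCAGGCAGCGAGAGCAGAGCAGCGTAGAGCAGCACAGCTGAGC
A search of this window found none of 4 motifs: TATAAA and TATATA, read on the given strand, and the CCAAT box and the GC box GGGCGG, read on both strands. Among 32851 promoters of the same length, these were held by 8.32%, 5.67%, 37.4% and 35.7%, so each is missing from most promoters. The absence says only that these letters are not in the window.

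**Figure D1:**
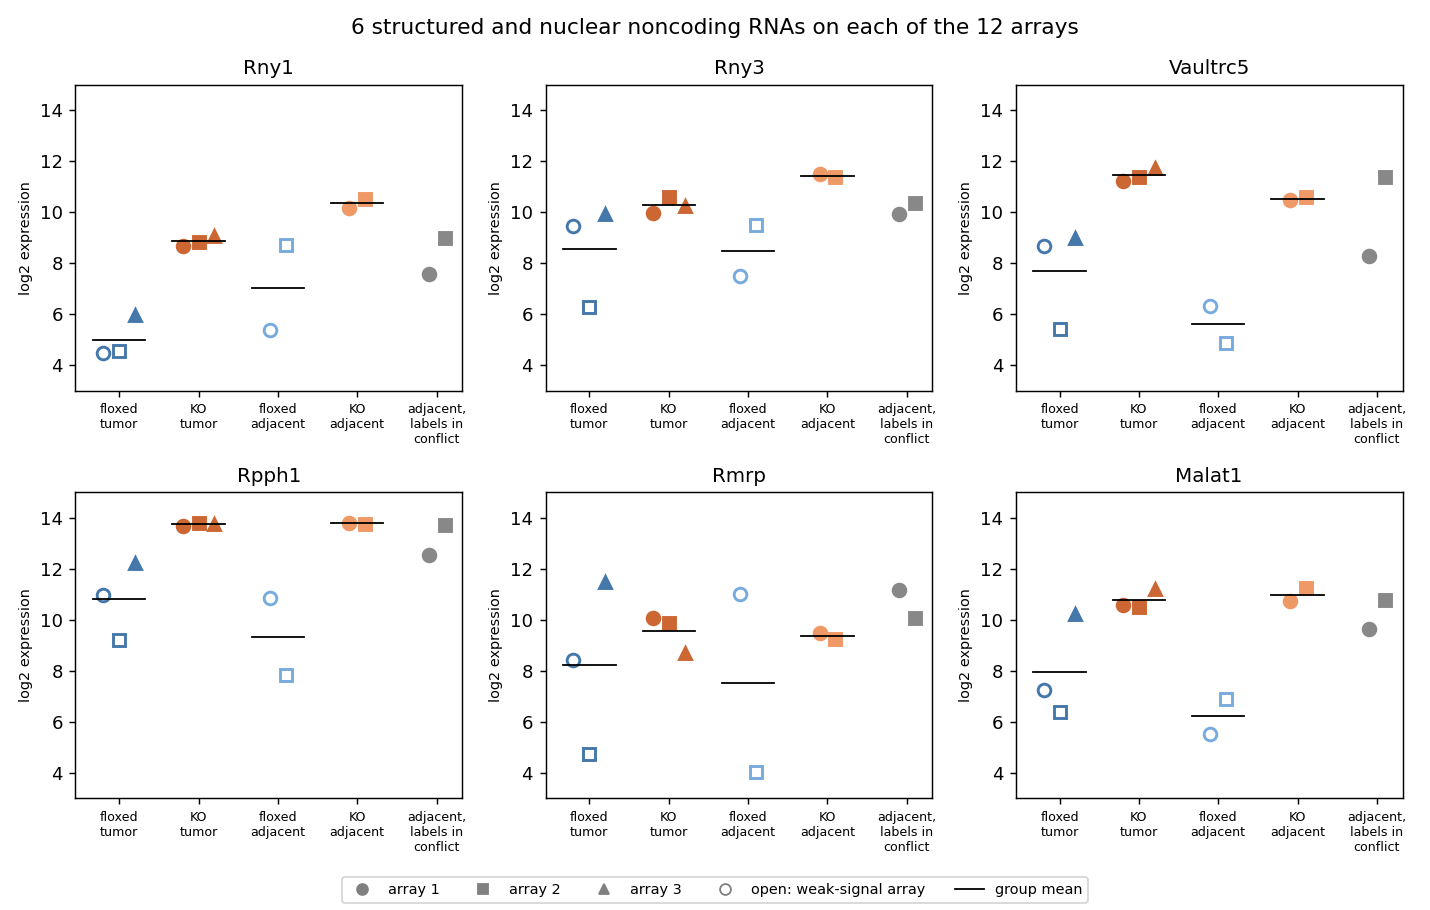
Log2 expression of each of the 6 noncoding RNAs (vertical axis, same range in every panel) on each array, by group (horizontal axis), with the group mean as a line, the array number as marker shape and weak-signal arrays as open markers. Rpph1 on the KO arrays is packed between 13.70 and 13.81, while Rmrp on the floxed arrays runs from 4.03 to 11.49.

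Across the 6 RNAs the median KO minus floxed difference was 2.89 in tumor and 3.88 in adjacent epithelium, where the median over all genes was -0.01 and -0.04. In tumor, 5 of the 6 had every KO array above every floxed array, as had 13.2% of all genes. In adjacent epithelium the count was also 5 of 6, against 32.1% of all genes with 2 arrays a side. The exception in both tissues was Rmrp. These values chose the members, so nothing further is read from the counts. Without the weak-signal arrays the median tumor difference was 1.04, and Rny1, Vaultrc5 and Rpph1 kept differences over 1 while Rny3 and Malat1 came to 0.35 and 0.56. No floxed adjacent array remained in that setting, so the adjacent difference has no such value.

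**Figure D2:**
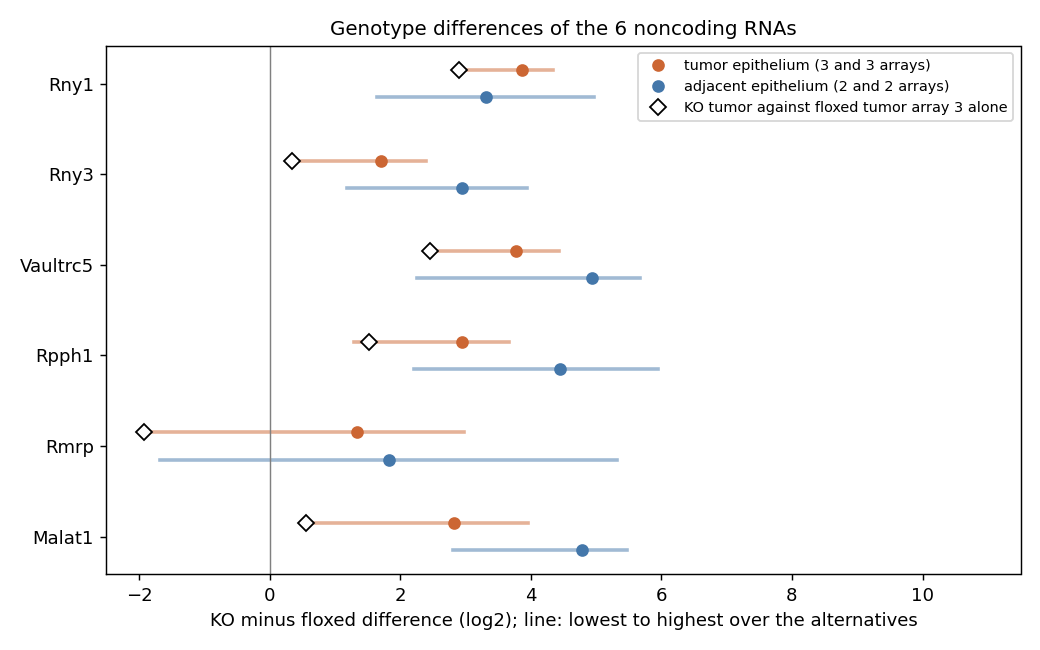
KO minus floxed differences (log2, horizontal axis) of the 6 noncoding RNAs in tumor and adjacent epithelium, with lines from the lowest to the highest value over the processing alternatives and open diamonds for the KO tumor mean against floxed tumor array 3 alone. Rmrp is the RNA whose lines cross 0, from -1.92 to 2.97 in tumor and from -1.67 to 5.33 in adjacent epithelium.

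The 2 adjacent arrays with opposed labels were not weak in signal and fell between or beside the groups. Conflict array 1 gave 7.57 for Rny1, 9.92 for Rny3, 8.27 for Vaultrc5, 12.54 for Rpph1, 11.19 for Rmrp and 9.65 for Malat1. Conflict array 2 gave 8.98, 10.37, 11.38, 13.73, 10.09 and 10.79 in the same order. Array 1, floxed by its genotype field, was the lower of the pair for every RNA but Rmrp. Read by title or by genotype field, the pair brought the adjacent median difference of the members to 2.03 or 3.02.

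The spread over all 12 arrays placed the 6 RNAs among the more variable genes, a property that their choice on genotype differences favours. The SD ran from 1.49 for Rny3, rank 126 of 19938, to 2.45 for Vaultrc5, rank 6, where the median gene had 0.44. The percentile of each probe set among the genes of its own array, which says nothing on relative abundance between RNAs, showed where the low values lay. Rny1 stood at percentile 52.6, 57.3 and 88.9 on the floxed tumor arrays and at 99.7 or higher on every KO array. Rmrp stood at 99.992 on floxed adjacent array 1 and at 28.3 on floxed adjacent array 2. Rny3 stayed near the top on all 12 arrays, with 98.9 on floxed tumor array 2 as its lowest percentile.

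Among the 6, Vaultrc5 and Rpph1 had the most similar profiles over the 12 arrays, with a mean absolute difference of 0.65 after each profile was centred on its own mean, and Rpph1 and Malat1 also differed by 0.65. Rny1 and Rmrp were the least similar pair, at 2.28. The 2 Y RNAs differed by 0.92. These figures describe 12 arrays that share the weak-signal split, and no test was made of them.

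Tumor against adjacent epithelium, averaged over the genotypes, is a comparison that the choice of members did not use. It asks whether the RNAs differ between adenoma and neighbouring mucosa. The same arrays entered both, and for all 6 RNAs the floxed SDs exceeded the KO SDs. The tissue differences are therefore not fully independent of that choice. In limma's fit of the 10 arrays, 0 of the 6 RNAs and 0 of 19938 genes (0%) passed an adjusted p under 0.05, whereas 2 of the 6 and 1368 of all genes (6.86%) had an unadjusted p under 0.05. Rny1 had the lowest p of the 6. Its tumor minus adjacent difference was -1.76 ± 0.54 (SE), with a 95% interval of -2.96 to -0.56 and a limma adjusted p of 0.593, and it was -0.93 without floxed adjacent array 2 (limma adjusted p = 0.599). Vaultrc5 was higher in tumor by 1.51 ± 0.61 (SE), with an interval of 0.16 to 2.86 and a limma adjusted p of 0.674. Neither RNA passed the test over all genes. The other 4 had differences of -0.54 for Rny3, 0.72 for Rpph1, 0.45 for Rmrp and 0.76 for Malat1, with limma adjusted p-values of 0.883 to 0.980. The interval of Malat1 ran from -0.61 to 2.13 and that of Rmrp from -2.58 to 3.48, and the SD of Rmrp was 3.37 and 4.95 in the floxed groups against 0.75 and 0.17 in the KO groups.

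Within each genotype the same differences can be given as a description. On the KO arrays, tumor minus adjacent was -1.49 for Rny1, -1.16 for Rny3 and 0.93 for Vaultrc5, and the tumor and adjacent arrays of these 3 did not overlap, as held in either direction for 32.1% of all genes. For Rpph1, Rmrp and Malat1 it was -0.03, 0.21 and -0.22, and their arrays overlapped. On the floxed arrays it was -2.04 for Rny1, 0.08 for Rny3, 2.09 for Vaultrc5, 1.47 for Rpph1, 0.69 for Rmrp and 1.74 for Malat1. The floxed tumor and adjacent arrays overlapped for all 6, while 18.8% of all genes had no overlap there in either direction. With 1 floxed array left out, the floxed difference of Rny1 ran from -3.71 without adjacent array 1 to -0.38 without adjacent array 2, and that of Vaultrc5 from 1.35 without adjacent array 2 to 3.23 without tumor array 2. For Malat1 it ran from 0.61 without tumor array 3 to 2.51 without tumor array 2. The sign turned for Rny3 (-0.92 without adjacent array 1, -0.61 without tumor array 3 and -0.38 without tumor array 1), Rpph1 (-0.04 without adjacent array 2) and Rmrp (-2.81 without adjacent array 2 and -0.94 without tumor array 3). In a limma fit of the 5 KO arrays alone, 368 genes (1.85%) passed, Rny1, Rny3 and Vaultrc5 among them; the same KO arrays entered the values that chose the members, so nothing is read from those 3. With each KO array left out in turn that count ran from 10 without KO adjacent array 2 to 633 without KO tumor array 3.

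**Figure D3:**
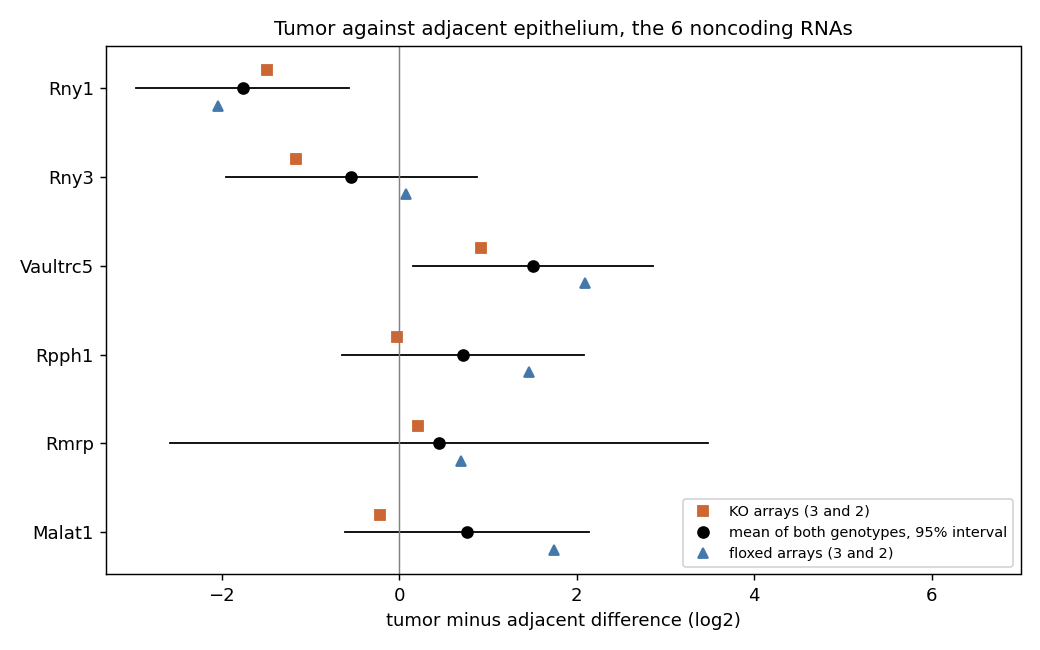
Tumor minus adjacent differences (log2, horizontal axis) of the 6 noncoding RNAs as the mean of both genotypes with its 95% interval (black), on the KO arrays (squares) and on the floxed arrays (triangles). The intervals of Rny1, -2.96 to -0.56, and Vaultrc5, 0.16 to 2.86, lie to either side of 0, and those of the other 4 span it.

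The proteins that bind or process these RNAs were compared between genotypes with limma, adjusted over all 19938 genes. In the whole fit, 0.682% of genes were called higher and 0.396% lower in KO tumor, and 2.91% higher and 3.15% lower in KO adjacent epithelium. An unadjusted p under 0.05, in either direction, was reached by 23% of all genes in tumor and 28.2% in adjacent epithelium, the background for the unadjusted count of each list. Of 6 Y RNA binders, none passed in tumor (at an unadjusted p under 0.05, 4 were higher and 1 lower) and 3 were higher in KO adjacent tissue. These were Hnrnpk, an RNA-binding protein of the hnRNP family, by 3.06 ± 0.65 (SE, limma adjusted p = 0.0301), Ssb, the La protein, by 2.24 ± 0.57 (SE, limma adjusted p = 0.0462), and the splicing repressor Ptbp1 by 1.83 ± 0.37 (SE, limma adjusted p = 0.0272). Ssb measured 3.89, 3.12 and 5.44 on the floxed tumor arrays and 5.92, 5.59 and 5.75 on the KO tumor arrays, and in adjacent tissue 4.25 and 4.55 against 6.63 and 6.66. Among the floxed tumor arrays, array 3 was nearest to the KO tumor mean of Ssb. The adjacent calls of Hnrnpk, Ssb and Ptbp1 held in 10, 7 and 9 of 21 alternatives. Ro60, which holds the Y RNAs in the Ro particle, was under the olfactory receptor 95th percentile on all KO arrays and both floxed adjacent arrays, so its level was not resolved. The major vault protein gene Mvp was the 1 of 3 listed vault protein genes measured, and it differed by 0.72 in tumor and 0.82 in adjacent tissue without passing (limma adjusted p = 0.251 and 0.239).

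None of the 11 protein subunits of RNase P and RNase MRP passed in either tissue with limma. In each tissue 2 of the 11 had an unadjusted p under 0.05, both lower in KO, a share below the 23% and 28.2% of all genes. Their median difference was -0.49 in tumor and -0.21 in adjacent epithelium, and 3 of 11 lay above 0 in each. Rpp40 had differences of -1.03 (adjusted p = 0.186) and -1.95 (adjusted p = 0.0519), and Rpp14 had -0.76 in tumor (adjusted p = 0.155). Most of these genes were dim: 8 of 11 were under the olfactory receptor 95th percentile on every KO array. The low end itself lay higher on the weak-signal arrays, all of them floxed. The olfactory receptor median was 3.89 to 4.08 on them and 2.75 to 3.01 elsewhere. The part of this in the negative differences was not tested.

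For Malat1 and the missing Neat1, nuclear speckle and paraspeckle proteins are the partners. Of 22 speckle and Malat1 processing proteins 1 was called higher in KO tumor and 4 in KO adjacent tissue. The medians were 0.58 and 1.36, and all 22 lay above 0 in adjacent tissue. At an unadjusted p under 0.05, 5 were higher in tumor and 11 in adjacent tissue, with 0 lower. Over all genes, 23% in tumor and 28.2% in adjacent tissue reached that, in either direction. U2af2, a subunit of the factor that marks the 3′ splice site, was higher in both, by 1.61 ± 0.30 (SE, limma adjusted p = 0.0455) and 2.69 ± 0.37 (SE, limma adjusted p = 0.00962). Its tumor call held in 9 of 22 alternatives and its adjacent call in 16 of 21. Srrm2, a scaffold protein of speckles, was higher by 3.74 in adjacent tissue (limma adjusted p = 0.0436), with 4.62 and 3.50 on the floxed and 7.62 and 7.98 on the KO arrays. Its tumor values were 4.38, 4.55 and 7.92 on the floxed arrays and 7.68, 7.29 and 7.47 on the KO arrays, so floxed tumor array 3 lay above every KO tumor array. The kinase gene Clk4 was higher by 2.01 in adjacent tissue (limma adjusted p = 0.0473). The adjacent calls of Srrm2 and Clk4 each held in 8 of 21 alternatives. Of 10 paraspeckle proteins none passed in tumor (3 had an unadjusted p under 0.05, all higher, where 23% of all genes did in either direction) and Taf15, Nono and Sfpq were higher in KO adjacent tissue, by 2.58, 2.09 and 1.66 (limma adjusted p = 0.0175, 0.0126 and 0.0349). The calls of Taf15, Nono and Sfpq held in 14, 17 and 9 of 21 alternatives. Nono and Sfpq are core paraspeckle proteins that bind Neat1.

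RNA polymerase III makes the Y, vault, RNase P and RNase MRP RNAs. Of 28 genes of its machinery none was called in tumor, where 4 were higher and 1 lower at an unadjusted p under 0.05, a share below that of all genes, and 3 were higher in KO adjacent tissue. Gtf3c6, a subunit of the initiation factor TFIIIC, was higher by 2.22 ± 0.27 (SE, limma adjusted p = 0.00598), and the polymerase subunit genes Crcp and Polr3b by 1.65 and 1.27 (limma adjusted p = 0.0240 and 0.0320). Medians over the 28 were 0.27 and 0.65. A further 16 abundant messenger RNAs were listed for their abundance, and any tie of theirs with these RNAs was not examined. Of the 16, none passed in tumor (at an unadjusted p under 0.05, 5 were higher and 1 lower). In KO adjacent tissue 3 were higher, led by Tpt1 at 3.34 and Eef1a1 at 3.10 (limma adjusted p = 0.0147 and 0.0241). Rplp0 was the last of the 3, at 2.06 (limma adjusted p = 0.03). The calls of Tpt1, Eef1a1 and Rplp0 held in 15, 12 and 10 of 21 alternatives. The medians of the 16, 0.81 and 1.77, were larger than those of the polymerase III machinery and of the speckle proteins. They were smaller than the 0.84 and 1.94 of the Y RNA binders.

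**Figure D4:**
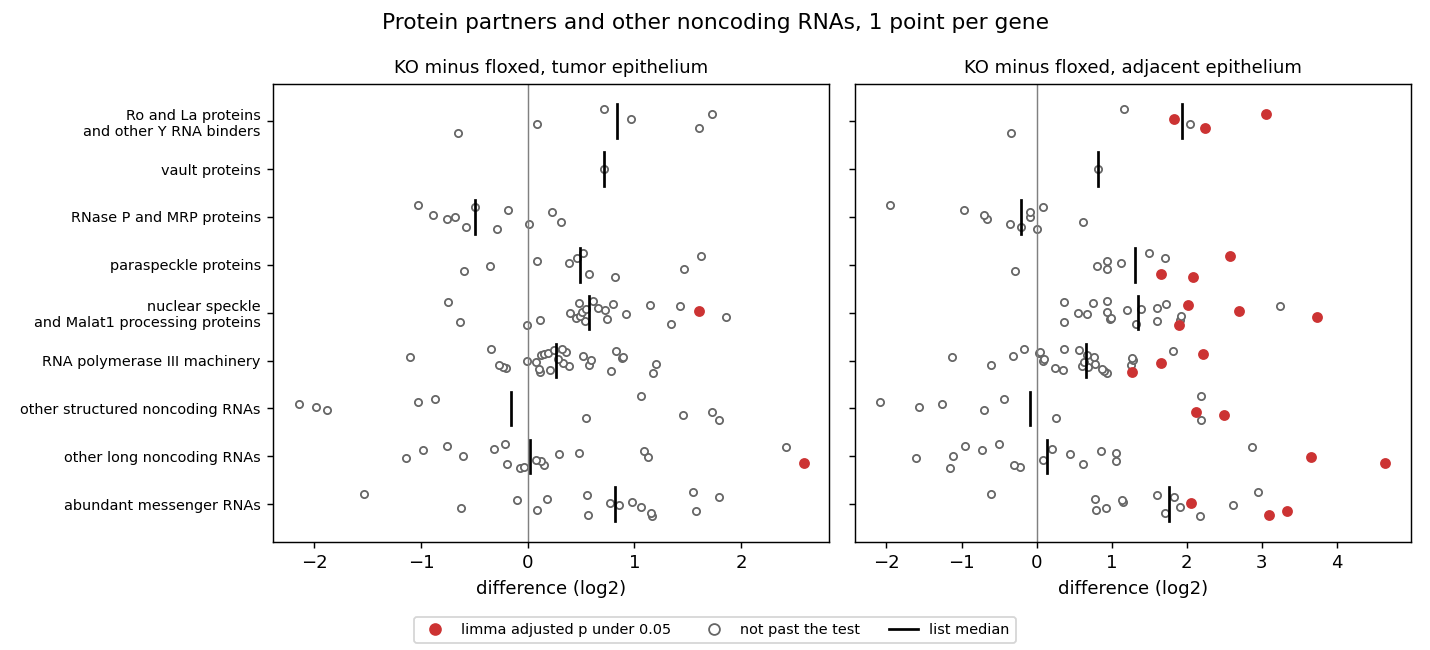
KO minus floxed differences (log2, horizontal axes) of each measured gene in 9 lists (vertical axis), in tumor and in adjacent epithelium, with genes past a limma adjusted p under 0.05 filled and list medians as bars. The RNase P and MRP proteins have medians of -0.49 and -0.21, and the abundant messenger RNAs of 0.81 and 1.77.

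The counts changed when single arrays or the weak-signal ones were left out. Without KO adjacent array 1, and without KO adjacent array 2, 0 genes of the lists described here, the other noncoding RNAs and cell markers included, were called higher by limma in either tissue, whereas without floxed tumor array 3 the speckle list had 15 of 22 higher in both, where 29.1% of all genes were called in tumor and 24.6% in adjacent tissue, in either direction. Among RNase P and MRP proteins, 3 were lower and 1 was higher in tumor in that same setting, and 2 were lower in adjacent tissue. The Y RNA binders in adjacent tissue also came to 0 without any single KO tumor array or without floxed adjacent array 2. With all weak-signal arrays left out, where floxed tumor array 3 alone stands for its group and is assumed to vary like the others, 3866 genes (19.4%) were called in tumor. In that setting 2 speckle proteins were higher and 10 were lower, with a median of -0.62, the opposite sign to the fit of all arrays. With the title number as a replicate block, 2 Y RNA binders, 2 paraspeckle proteins, 1 speckle protein and 1 abundant messenger RNA were called higher in tumor, of 782 genes in all (3.92%). In adjacent tissue the block called 7 speckle proteins, 5 polymerase III genes and 8 abundant messenger RNAs higher and 1 RNase P or MRP protein lower, of 2450 genes (12.3%).

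Other structured RNAs showed no single direction. Of 10 measured, none passed in tumor (6 had an unadjusted p under 0.05, 3 in each direction) and Rprl1 and Rprl2 were higher in KO adjacent tissue, by 2.50 ± 0.39 and 2.12 ± 0.51 (SE, limma adjusted p = 0.0147 and 0.0396). Both are named as RNase P RNA-like genes, and their signal cannot be separated from that of Rpph1 if the probes share sequence. Rprl1 measured 4.88, 4.40 and 5.78 on floxed tumor and 6.57, 6.56 and 6.30 on KO tumor arrays. Its order was that of Rpph1 on the floxed tumor arrays but not on the KO tumor arrays. With the replicate block, 2 of the 10 were called higher and 2 lower in tumor, and 3 higher and 1 lower in adjacent tissue. Rn7sk, the 7SK RNA that holds the elongation factor P-TEFb, was 10.54, 9.15 and 12.31 on the floxed tumor arrays and 12.46, 12.35 and 12.58 on the KO tumor arrays, so that floxed tumor array 3 was level with the KO arrays. Rnu3a, the U3 small nucleolar RNA of ribosomal RNA processing, had a lower mean in KO, but its genotypes overlapped in tumor. It was 7.68, 4.12 and 9.89 on the floxed tumor arrays against 5.92, 4.94 and 5.19 on the KO tumor arrays. The difference was -1.88 ± 1.06 (SE, limma adjusted p = 0.309) in tumor and -0.70 (limma adjusted p = 0.751) in adjacent tissue. Like Rmrp, Rnu3a was highest among the tumor arrays on floxed tumor array 3, while floxed tumor array 2 lay below every KO tumor array.

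**Figure D5:**
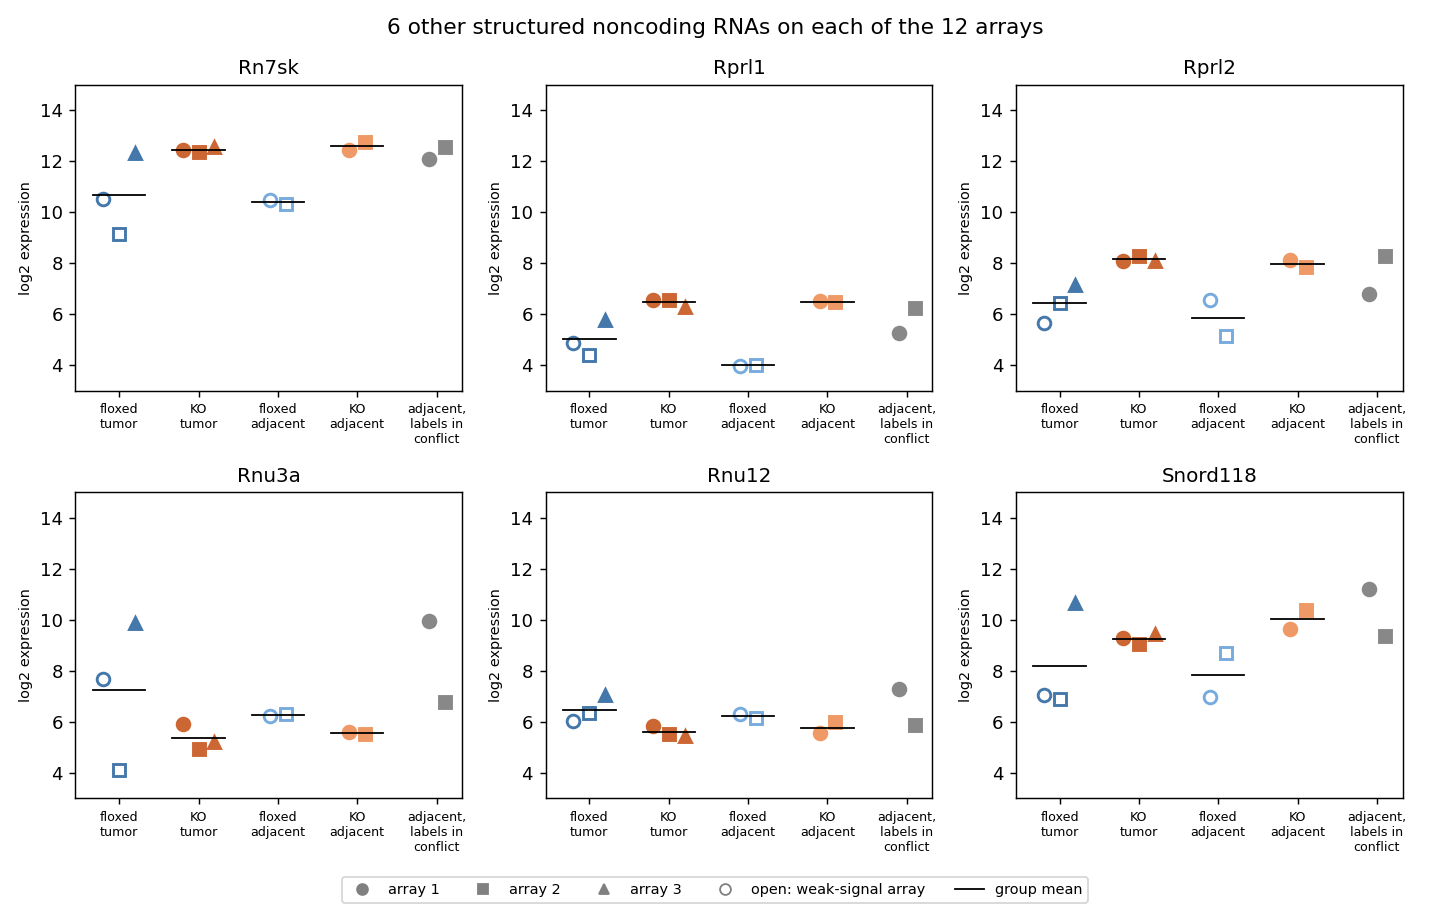
Log2 expression (vertical axis) of 6 other structured noncoding RNAs on each array by group (horizontal axis), with markers as in the plot of the members and group means as lines. Rnu3a on floxed tumor array 3 is at 9.89, above the KO tumor arrays at 4.94 to 5.92.

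Of 18 other long noncoding RNAs, Gas5 was the 1 called in tumor, higher in KO by 2.59 ± 0.48 (SE, limma adjusted p = 0.0445). The tumor call of Gas5 held in 6 of 22 alternatives, with differences of 1.25 to 3.10, and its adjacent call in 18 of 21. In adjacent tissue Gas5 was higher by 4.65 ± 0.59 (SE, limma adjusted p = 0.00715) and Firre, a nuclear RNA of the X chromosome, by 3.66 ± 0.46 (SE, limma adjusted p = 0.00707). The adjacent call of Firre held in 17 of 21 alternatives. With the replicate block 2 of the 18 were higher in tumor, and 4 were higher and 1 lower in adjacent tissue. Gas5, whose introns hold small nucleolar RNAs, measured 5.55, 6.80 and 7.69 on the floxed tumor arrays and 9.92, 9.14 and 8.75 on the KO tumor arrays. The median of the 18 was 0.02 in tumor and 0.14 in adjacent tissue, where the median of all genes was -0.01 and -0.04.

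The genes whose profiles over the 12 arrays were nearest to Malat1 were Arf1, Gabarap, Snora44, Rab2a and Tmem54, at mean absolute differences of 0.49 to 0.56 where the median gene had 1.85. For Rny1 they were Taf1d, Rpl5, Rab2a, Rps14 and Arf1, at 0.59 to 0.84 (median gene 1.81). The mean of the 6 RNAs was nearest to Snhg17, Tmed2, Gabarap, Snord14e and Spcs1, at 0.30 to 0.44 (median gene 1.53). Snhg17 was 6.78, 4.14 and 7.61 on the floxed tumor arrays and 8.35, 8.97 and 8.45 on the KO tumor arrays. These lists hold messenger RNAs as well as noncoding RNAs.

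The measured genes next to the members in the GRCm38.p6 gene table were 8: Ezh2 and Pdia4 around the Y RNAs, Ccnb1ip1 and Parp2 around Rpph1, Sit1 and Ccdc107 around Rmrp, and Ltbp3 and Frmd8 around Malat1 and Neat1; the neighbours of Vaultrc5 are not analysed here. With limma 0 of the 8 were called in tumor, and Ezh2 and Parp2 were higher in KO adjacent tissue, by 1.72 and 1.39 (limma adjusted p = 0.0189 and 0.0490). Under 21 alternatives Ezh2 passed in 15 and Parp2 in 9, and both were lost without either KO adjacent array and without floxed adjacent array 1, Parp2 also without floxed adjacent array 2 or any KO tumor array. Ltbp3 and Frmd8 differed by 0.11 and 0.43 in tumor (limma adjusted p = 0.806 and 0.296). The neighbours' median differences were 0.19 in tumor and 0.81 in adjacent tissue, with -0.01 and -0.04 over all genes.

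Markers of the dissected cell type and of others were read on the same arrays. The mean of 12 intestinal epithelium markers was 5.37 to 7.97 on floxed tumor, 6.54 to 7.34 on KO tumor, 5.15 to 5.46 on floxed adjacent and 6.89 to 6.97 on KO adjacent arrays. With limma 0 of the 12 were called in either tissue, 2 in tumor and 8 in adjacent tissue had an unadjusted p under 0.05 (23% and 28.2% of all genes), and with the replicate block 6 of 12 were higher in KO adjacent tissue. In tumor 6 of 12 were lower in KO when floxed tumor array 3 alone stood for its group and 6 of 12 were higher without that array. All 12 were above the olfactory receptor 95th percentile on every KO array, while Epcam, Krt19 and Cdx1 were under it on both floxed adjacent arrays. Of 10 fibroblast and matrix markers, Col3a1 was higher in KO tumor by 1.21 (limma adjusted p = 0.0478) and Sparc and Dcn in KO adjacent tissue by 2.36 and 1.53 (limma adjusted p = 0.0206 and 0.0315). The Col3a1 call held in 8 of 22 alternatives, that of Sparc in 12 of 21 and that of Dcn in 11 of 21. The mean of the 10 was 4.27 to 4.65 on floxed and 4.75 to 4.99 on KO tumor arrays, and 4.38 to 4.73 on floxed and 5.18 to 5.28 on KO adjacent arrays, with Lum and Dpt under the olfactory receptor 95th percentile in every group. With limma none of 9 leukocyte, 7 smooth muscle, 6 endothelium or 4 enteric neuron and glia markers was called in either tissue; at an unadjusted p under 0.05 the counts were 0, 1, 3 and 1 in tumor and 0, 0, 3 and 2 in adjacent tissue. The part of cell makeup, RNA input and RNA quality in the differences of the 6 RNAs was not tested.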

How the data were processed

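The 12 arrays hold log2 expression values, deposited in the series' value table by the authors; Partek and RMA are named in the submitters' processing notes, with no version, role or genome build, and probe saturation and background steps are not given in the sources used here. Values were read as deposited. Of 35556 probe sets, 21789 carried 1 gene symbol in the platform annotation, 1621 several and 12146 none; 21698 Entrez identifiers matched the reference gene table (GRCm38.p6) and 0 symbols changed. A gene with several probe sets (999 of 19938) took the one with the highest mean over the 12 arrays.

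The members and lists were chosen with earlier results of these data known. limma 3.58.1 in R 4.3.3 (lmFit, eBayes, two-sided, Benjamini-Hochberg over 19938 genes, called at an adjusted p under 0.05) was fitted on the 10 arrays with agreeing labels, 4 groups in 1 fit; tables were made with Python 3.11.15 and pandas 2.3.3. Weak-signal arrays had a median correlation with the others under 0.7. The text names the 6 measured members, the 5 genes nearest in profile and the nearest measured gene on each side. In each list, a rule picked up to 3 called genes with the largest difference per direction. Where none was called, it picked the 2 with the smallest unadjusted p. Not every gene picked in this way is named in the text. Ssb, Srrm2, Rprl1, Rn7sk, Rnu3a, Gas5 and Snhg17 were chosen for array values, and Ro60 and the dim markers for mention, after their values were seen.

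In tumor, same-numbered floxed and KO arrays deviated together with correlations of 0.105, 0.121 and 0.348, all over 0.1. A replicate block by title number was therefore run as an alternative, in both tissues, while the main fit had no pairing. Floxed array 2 with KO array 1 gave 0.246, above 0.105 and 0.121, and adjacent arrays were not examined in this way. These correlations therefore do not establish pairs, and counts with the block rest on an assumed pairing. The fit was tested on simulated data for 19938 genes: in the tumor comparison 30% of genes changed by 1 and 98% by 2 on the log2 scale were recovered, and in the tissue comparison 48% and 100%. The simulation gave all genes the same spread on an array and no shifts shared between genes. The rates therefore check the code and do not show what size of change the real comparisons could miss. Alternatives were another scaling, filter, probe set rule, variance model, threshold, array weights, sets of arrays, a replicate block and each array left out; leaving out single KO arrays in the fit of KO arrays alone and single floxed arrays in the floxed tissue difference, and the list counts and the called neighbours under each alternative, were added after seeing the data.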

Additional observations from a re-analysis of the deposited data

Results flagged for a closer look

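On the adjacent arrays with opposed genotype labels, which enter no group, 4 of the 6 noncoding RNAs were above both floxed adjacent arrays even on the lower array of the pair. This lower value was 9.92 for Rny3 (floxed adjacent arrays 7.50 and 9.49), 8.27 for Vaultrc5 (6.34 and 4.86), 12.5 for Rpph1 (10.85 and 7.83) and 9.65 for Malat1 (5.52 and 6.91). In all 4 it came from the array that is floxed by description and genotype field and KO by title and source name. The share of all genes for which the same holds was not computed. The floxed adjacent values also entered the choice of the members, so nothing further is read from the count. Both floxed adjacent arrays were weak in signal and neither array of the pair was. The part of signal in this was not tested.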

How the results depend on the processing

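Counts of genes past the test moved most. KO minus floxed in tumor (215 genes) gave 13 after a second quantile normalization, 17 after scaling each array by its SD, 98 without the dimmest 30% of genes, 1366 over all probe sets, 61 with trend and robust variance, 2907 with array weights, 0 and 132 with the conflict arrays grouped by title and by genotype field, 3866 without weak-signal arrays, 1181 at an adjusted p under 0.10 and 8 with only the arrays compared; leaving out 1 array gave 10 to 5793. Adjacent (1209) gave, for the same settings where they apply, 128, 175, 454, 2948, 4034 with weights, 1 and 48, 3346 and 3435, and 1 to 4903. Trend and robust variance did not move the adjacent count by over 1.5 times. With the replicate block the counts were 782 and 2450, and the members' tissue calls did not change. The members' median moved to 1.04 in tumor without weak-signal arrays, and in adjacent epithelium to 2.13 with SD scaling and 2.03 with labels read by title. Tumor minus adjacent (0 genes) gave 4 with array weights, 368 with KO arrays only (3 members, Rny1 -1.49, Rny3 -1.16 and Vaultrc5 0.93) and 0 to 6 with 1 array left out. Signs turned for Rpph1 (-0.031) and Malat1 (-0.22) with KO arrays only. They also turned for Rmrp with the replicate block (-0.15), with labels read by title or genotype field and with all 12 arrays by tissue (-0.28 in each). With 1 array left out, tissue differences ran from -1.04 to 0.025 for Rny3, -0.037 to 1.47 for Rpph1 and -1.30 to 2.20 for Rmrp, and the genotype difference of Rmrp, which was -1.92 in tumor without weak-signal arrays, from -0.39 to 2.97 in tumor and -1.67 to 5.33 in adjacent epithelium. The cause of these shifts was not tested. Adjacent genotype and tissue averages have no value without weak-signal arrays, since no floxed adjacent array is left. Low signal limits Rny1, Vaultrc5 and Rmrp on the weak-signal arrays named in the text.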

Other observations

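Conflict array 1 and floxed tumor array 3 shared high values of further structured RNAs. Rnu3a was 9.95 and 9.89 on these, against 4.94 to 6.78 on the KO arrays and conflict array 2. Snord118, the U8 small nucleolar RNA, was 11.19 and 10.65 on them and 9.04 to 10.38 on the KO arrays. Rnu12, the U12 small nuclear RNA of the minor spliceosome, was 7.29 and 7.06 on them and 5.44 to 6.0 on the KO arrays. Rmrp followed the same order, with 11.19 and 11.49 against 8.70 to 10.09 on the KO arrays, while Rpph1 went the other way, with 12.54 and 12.24 against 13.70 to 13.81. These arrays were picked after their values were seen, and no test was made.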
